A study of Mus musculus with 6 samples.

Results

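The genes described here are 9 members of the mouse Hsp70 family outside its Hsp110 branch: Hspa8, Hspa1a, Hspa1l, Hspa2, Hspa9, Hspa12a, Hspa12b, Hspa13 and Hspa14. They were chosen by gene symbol, and each had 1 probe set among the 20239 probe sets that carried 1 symbol. RNA came from heart ventricles of male mice aged 3.5 weeks on a 129/Sv background, and was read on Affymetrix Mouse Gene 1.0 ST arrays. The labels give 3 mice of genotype Hspa4-/- and 3 of genotype Hspa4+/+, which is wild type. No treatment is named for either group, and the sources used here do not say how the Hspa4 allele was made. Each array is named below by its label and replicate number, as mutant-labelled array 1, 2 or 3 and wild-type array 1, 2 or 3. All values are on the log2 scale, and a difference is the mutant-labelled mean minus the wild-type mean. The comparison asks how the partner chaperones of the family stand in young hearts when Hspa4 is lost.

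Hsp70 proteins bind exposed hydrophobic stretches of unfolded proteins and release them in a cycle driven by ATP. J-domain proteins bring clients and start ATP hydrolysis, and nucleotide exchange factors, among them Hspa4, remove ADP so that the client is let go. In heart muscle the system folds new proteins, escorts damaged ones to degradation and helps to keep the contractile apparatus in order. The family divides by place and control. Hspa8 is the constitutive cytosolic form, Hspa1a the heat-inducible one, Hspa1l and Hspa2 are best known from the testis, and Hspa9 drives protein import into mitochondria. Hspa13 is an atypical form of the endoplasmic reticulum and microsomes, Hspa14 works with a J-domain protein at the ribosome, and Hspa12a and Hspa12b are distant relatives, the latter known from endothelial cells.

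Hspa1a, Hspa1b and Hspa1l lie together on chromosome 17 and bear on how the probe sets are read. RefSeq's promoter table (build GRCm38.p6) held windows of 300 bases, of which 250 lie before the start, for 6 of the 9 genes; Hspa8, Hspa9 and Hspa13 had no entry. The 250 bases before the start are shown 5′ to 3′ for Hspa1a, for its copy Hspa1b and for Hspa1l, because Hspa1b had no probe set of its own among those named and Hspa1l starts beside Hspa1a. Capitals mark GAANNTTC, the paired unit bound by heat shock factors, and the CCAAT box, which reads ATTGG on the other strand.
Hspa1a, chr17:34972157-34972406, minus strand: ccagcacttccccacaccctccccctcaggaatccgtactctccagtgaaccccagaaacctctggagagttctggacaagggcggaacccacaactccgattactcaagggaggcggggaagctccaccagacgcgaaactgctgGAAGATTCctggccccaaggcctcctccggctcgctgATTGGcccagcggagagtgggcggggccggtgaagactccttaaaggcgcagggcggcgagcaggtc
Hspa1b, chr17:34959239-34959488, minus strand: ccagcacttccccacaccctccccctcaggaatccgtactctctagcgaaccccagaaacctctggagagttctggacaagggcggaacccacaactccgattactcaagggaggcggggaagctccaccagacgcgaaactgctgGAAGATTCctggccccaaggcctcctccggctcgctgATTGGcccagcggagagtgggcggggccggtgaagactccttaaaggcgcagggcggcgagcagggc
Hspa1l, chr17:34972453-34972702, plus strand: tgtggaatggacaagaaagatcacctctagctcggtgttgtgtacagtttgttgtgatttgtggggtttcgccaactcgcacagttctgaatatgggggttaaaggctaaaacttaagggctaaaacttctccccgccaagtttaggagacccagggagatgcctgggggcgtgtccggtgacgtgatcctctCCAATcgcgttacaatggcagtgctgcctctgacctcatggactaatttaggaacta

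The Hspa1a and Hspa1b stretches differed at 3 of 250 bases and were 98.8% identical. The starts of the Hspa1a and Hspa1b genes lie 12918 bases apart, and those of Hspa1a and Hspa1l lie 547 bases apart on opposite strands. Hspa1a and Hspa1b are known as near-identical copies, and whether the Hspa1a probe set also reads Hspa1b transcripts was not tested, so the Hspa1a values are uncertain. GAANNTTC began 104 bases before the start of Hspa1a and was found in 1 of the 6 member genes with a window, against 7.86% of all 32851 windows. TTCNNGAA, the other phase of the same unit, was in 0 of the 6 and in 8.52% of all windows. The CCAAT box on either strand was in 4 of the 6 (Hspa1a, Hspa1l, Hspa2 and Hspa14) and in 37.4% of all windows. GAANNTTC and TTCNNGAA read the same on either strand. A run of 3 units in turn (GAA, TTC and GAA, or TTC, GAA and TTC, with 2 bases between units), which overlaps both shorter motifs, stood in 0.603% of windows, in none of the 6 member genes and in those of Hsph1 and Chordc1. The run began at base 16 or 37 after the start in the windows of Hsph1. In that of Chordc1, runs began 4 bases before the start and at bases 2 and 7 after it. Of the partner and heat shock genes outside the 9, only Hspa1b, Hspa4, Hsph1 and Chordc1 were looked up. These matches describe letters in the windows and nothing was measured there.

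Hspa4 itself, the target of the deletion, checks the labels. It read 9.33, 6.63 and 6.75 on mutant-labelled arrays 1, 2 and 3 and 9.74, 9.50 and 9.48 on wild-type arrays 1, 2 and 3. Mutant-labelled array 1 thus stood near the wild-type arrays, against its label, while the other 2 were low. The difference was −2.01 (SE 0.58, n = 3 per group; limma, adjusted p = 0.263), and −2.89 (SE 0.10, n = 2 against 3; limma, adjusted p = 9.37e-06) when that array was set aside. Xist, a female-specific RNA, was also higher on it, at 7.68 against 5.51 to 5.69 on the other 5 arrays, although all mice are labelled male. Results are therefore given with all 6 arrays and with the 5 left. The array SDs ran from 1.19 to 1.27 and the medians from 6.42 to 6.48. No detection values were at hand, which leaves signal over background unknown, and there are few arrays, which limits the precision. Results on 6 and on 5 arrays share arrays and are not independent. Ventricular muscle markers were at high values on every array, with summed log2 levels over 8 genes of 96.9 to 97.4 on the mutant-labelled arrays and 95.6 to 96.4 in wild type. Of these 8 genes, 5 were higher without overlap, where 6.08% of all genes were, and 3 were higher at an unadjusted p under 0.05, where 5.64% were. With 5 arrays the counts were again 5, against 14.4%, and 3, against 8.55%, and with either set 0 passed over all genes (limma).

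**Figure D1:**
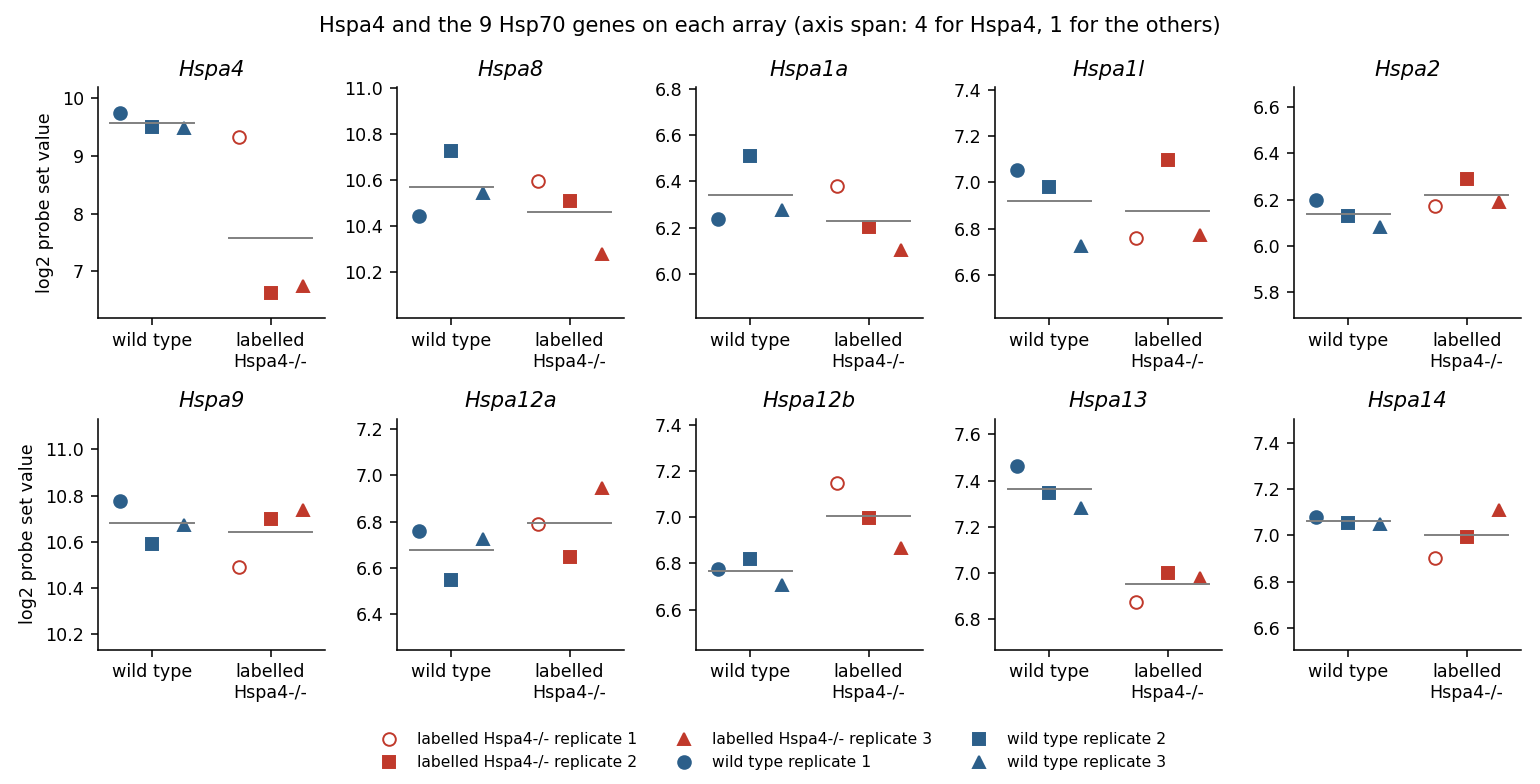
Log2 value of Hspa4 and of the 9 Hsp70 genes on each of the 6 arrays, with a grey line at each group's mean and an open circle for mutant-labelled array 1. The groups separate for Hspa13 (6.88 to 6.999 against 7.28 to 7.46) and Hspa12b (6.87 to 7.15 against 6.71 to 6.82) and overlap for the other 7 Hsp70 genes.

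Hspa13 was lower and Hspa12b higher on all 3 mutant-labelled arrays than on any wild-type array, and the other 7 Hsp70 genes overlapped between groups. No gene of the 9 passed the adjusted threshold of 0.05 with 6 arrays (limma), where 0% of all genes passed. At an unadjusted p under 0.05 there were 2 of the 9, Hspa13 and Hspa12b, where 11.2% of all genes were called (5.64% higher and 5.53% lower). Groups without overlap were found for the same 2 genes, against 15.1% of all genes. They were 1 gene higher, against 6.08%, and 1 lower, against 9.07%, so counts of 1 or 2 among 9 genes are near the background. The median difference of the 9 was −0.043, with 6 negative and 3 positive, beside a median of −0.0094 over all genes.

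With 5 arrays, 0 of the 9 passed the adjusted threshold (limma), against 0.440% of all genes, and 1, Hspa13, had an unadjusted p under 0.05 and was lower, against 14.9% of all genes (8.55% higher and 6.36% lower). Of the 9, 3 did not overlap between groups, against 33.3% of all genes. Hspa12b was the 1 higher, against 14.4%, and Hspa1a and Hspa13 were the 2 lower, against 18.9%. The median difference was 0.015, with 5 of the 9 positive, beside −0.018 over all genes. Weighting arrays by their noise let Hspa13 pass, alone of the 9, with both sets of arrays. Of all genes, 115 then passed on 6 arrays and 321 on 5.

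**Figure D2:**
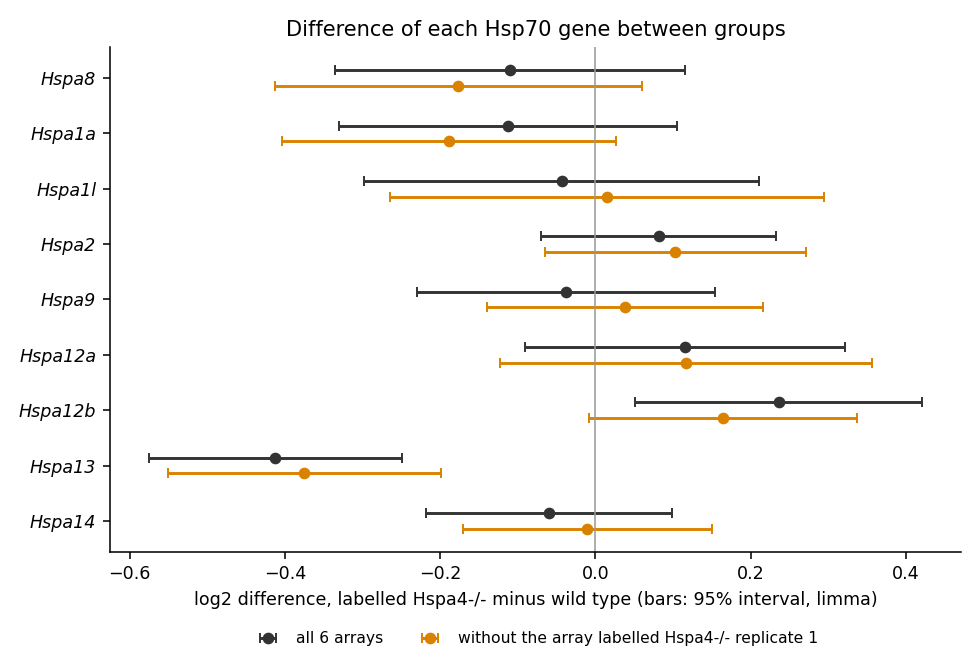
Log2 difference between the mutant-labelled and wild-type means for each Hsp70 gene, with its 95% interval from limma, for all 6 arrays and for the 5 left without mutant-labelled array 1. The interval of Hspa13 lies wholly below 0 with both sets of arrays, that of Hspa12b wholly above 0 with 6 arrays only, and the others span 0.

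Hspa8, the constitutive cytosolic Hsp70 that also strips clathrin coats from vesicles, read 10.59, 10.51 and 10.28 on mutant-labelled arrays 1, 2 and 3. It read 10.44, 10.72 and 10.54 on wild-type arrays 1, 2 and 3. Mutant-labelled array 3 was the lowest and wild-type array 2 the highest, and the groups overlapped. The means were 10.46 ± 0.16 and 10.57 ± 0.14 (SD, n = 3 each). The difference of −0.11 (SE 0.10, 95% interval −0.34 to 0.12) was within the spread between arrays (limma, adjusted p = 0.762). With 5 arrays it was −0.18 (SE 0.10, 95% interval −0.41 to 0.06; limma, adjusted p = 0.474). At their far ends the intervals reach levels 1.26-fold lower with 6 arrays and 1.33-fold lower with 5.

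Hspa1a, the member that heat and proteotoxic stress switch on, read 6.38, 6.20 and 6.10 on mutant-labelled arrays 1, 2 and 3 and 6.24, 6.51 and 6.28 on wild-type arrays 1, 2 and 3. The same arrays were lowest and highest as for Hspa8. With 6 arrays the groups overlapped, at a difference of −0.11 (SE 0.10, 95% interval −0.33 to 0.10; limma, adjusted p = 0.746). Mutant-labelled array 1 was the second highest of all 6. Without it both remaining mutant-labelled arrays lay below all wild-type arrays, at a difference of −0.19 (SE 0.09, 95% interval −0.40 to 0.03; limma, adjusted p = 0.400). Signal over background is unknown for this probe set, so these intervals set no limit on a change of the transcript.

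Hspa1l, the close relative whose start lies beside that of Hspa1a, read 6.76, 7.10 and 6.77 on mutant-labelled arrays 1, 2 and 3 and 7.05, 6.98 and 6.73 on wild-type arrays 1, 2 and 3. Both groups held high and low arrays. The difference was −0.043 (SE 0.11, 95% interval −0.30 to 0.21; limma, adjusted p = 0.934), and its sign turned without mutant-labelled array 1, to 0.015 (SE 0.12; limma, adjusted p = 0.972). Hspa2, needed in male meiosis, read 6.17, 6.29 and 6.19 against 6.20, 6.13 and 6.08. Its highest array was mutant-labelled and its 2 lowest were wild type, and the groups overlapped. The difference was 0.08 (SE 0.07, 95% interval −0.07 to 0.23; limma, adjusted p = 0.734), and 0.10 (SE 0.07; limma, adjusted p = 0.561) with 5 arrays. The Hspa2 group means of 6.22 and 6.14 lay below all array medians (6.42 to 6.48). Its signal over background is unknown, so these values set no limit on a change of the transcript.

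Hspa9, or mortalin, pulls precursor proteins through the inner mitochondrial membrane and folds them in the matrix. It read 10.49, 10.70 and 10.74 on mutant-labelled arrays 1, 2 and 3 and 10.78, 10.59 and 10.67 on wild-type arrays 1, 2 and 3. Mutant-labelled array 1 was the lowest of all, and the other 5 arrays lay between 10.59 and 10.78. The difference was −0.038 (SE 0.09, 95% interval −0.23 to 0.15; limma, adjusted p = 0.924) with 6 arrays and 0.039 (SE 0.08, 95% interval −0.14 to 0.22; limma, adjusted p = 0.859) without that array. The sign for Hspa9 on 6 arrays turned without mutant-labelled array 1 and also without wild-type array 1, to 0.012.

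Hspa13, a short Hsp70 with an ATPase domain and no client-binding domain, showed the largest difference of the 9. It read 6.88, 6.999 and 6.98 on mutant-labelled arrays 1, 2 and 3 and 7.46, 7.35 and 7.28 on wild-type arrays 1, 2 and 3. The groups did not overlap, and the gap between the nearest arrays was larger than the range within either group. Mutant-labelled array 1, with its Hspa4 near wild type, was the lowest of all. The means were 6.95 ± 0.07 and 7.36 ± 0.09 (SD, n = 3 each), which is 1.33-fold lower. The difference of −0.41 (SE 0.07, 95% interval −0.58 to −0.25) had the 19th smallest p of all 20239 genes but did not pass over all of them (limma, unadjusted p = 2.58e-04, adjusted p = 0.210). By exact permutation, two-sided, p was 0.1, and 3 against 3 arrays can go no lower. With 5 arrays the difference was −0.37 (SE 0.08, 95% interval −0.55 to −0.20; limma, adjusted p = 0.0780). Array weights carried it just past the threshold at an adjusted p of 0.0488 on 6 arrays and 0.0432 on 5 (limma). Of all genes, 115 and 321 passed with those weights. Hspa13 also passed when wild-type array 2 was left out of the 5 arrays (limma, adjusted p = 0.0466), where 875 of all genes passed. Over all alternatives the adjusted p ran from 0.0488 to 0.794 on 6 arrays and from 0.0432 to 0.310 on 5 (limma).

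Hspa14, which pairs with the J-domain protein Dnajc2 on ribosomes, read 6.90, 6.99 and 7.11 on mutant-labelled arrays 1, 2 and 3 against 7.08, 7.05 and 7.05 on wild-type arrays 1, 2 and 3. The wild-type arrays were nearly level with an SD of 0.016, while the mutant-labelled arrays lay on both sides of them with an SD of 0.10. The difference was −0.06 (SE 0.07, 95% interval −0.22 to 0.10; limma, adjusted p = 0.832), and −0.010 (SE 0.07; limma, adjusted p = 0.964) with 5 arrays. Its partner Dnajc2, named here for that role, differed by 0.043 (SE 0.06; limma, adjusted p = 0.862) with 6 arrays and by 0.033 (SE 0.07; limma, adjusted p = 0.860) with 5.

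Hspa12b, a distant Hsp70 relative that is needed for blood vessel growth, read 7.15, 6.998 and 6.87 on mutant-labelled arrays 1, 2 and 3. It read 6.78, 6.82 and 6.71 on wild-type arrays 1, 2 and 3. All mutant-labelled arrays were above all wild-type arrays, and mutant-labelled array 1 was the highest. The means were 7.004 ± 0.14 and 6.77 ± 0.06 (SD, n = 3 each), which is 1.18-fold higher. The difference of 0.24 (SE 0.08, 95% interval 0.05 to 0.42) did not pass over all genes (limma, unadjusted p = 0.0176, adjusted p = 0.323), and exact permutation gave its smallest possible two-sided p of 0.1. Without mutant-labelled array 1 the difference was 0.16 (SE 0.08, 95% interval −0.0087 to 0.34; limma, adjusted p = 0.359). Hspa12a, its sister gene, read 6.79, 6.65 and 6.94 against 6.76, 6.55 and 6.73. The groups overlapped, at a difference of 0.12 (SE 0.09, 95% interval −0.09 to 0.32; limma, adjusted p = 0.721), and 0.12 (SE 0.11; limma, adjusted p = 0.659) with 5 arrays.

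Markers of endothelial cells, where Hspa12b is known to be made, were read on the same arrays. Of 12 markers, all measured, 10 had a positive difference with 6 arrays and 2 a negative one, with a median of 0.19. Of all genes, 9278 differences were positive and 10961 negative. The 12 summed to log2 levels of 101.1 to 103.2 on the mutant-labelled arrays and 99.9 to 100.8 in wild type. Higher without overlap were 4 of the 12 (Eng, Robo4, Vwf and Egfl7), against 6.08% of all genes, and the 2 negative ones were Kdr at −0.16 and Tek at −0.15, all named after their values were seen. None of the 12 passed over all genes (limma), and 5 were higher at an unadjusted p under 0.05, against 5.64%. With 5 arrays 6 were higher without overlap, against 14.4%, with 9 positive, 3 negative and a median of 0.20. Of all genes, 8770 were then positive and 11469 negative. The order of the mutant-labelled arrays differed between the gene and the markers. Hspa12b stood 0.38, 0.23 and 0.10 above the wild-type mean on mutant-labelled arrays 1, 2 and 3, while the mean of the 12 markers stood 0.13, 0.07 and 0.24 above it. The part of the endothelial markers in the Hspa12b difference was not tested. In whole ventricle RNA, more cells of a type and more RNA per cell cannot be told apart.

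**Figure D3:**
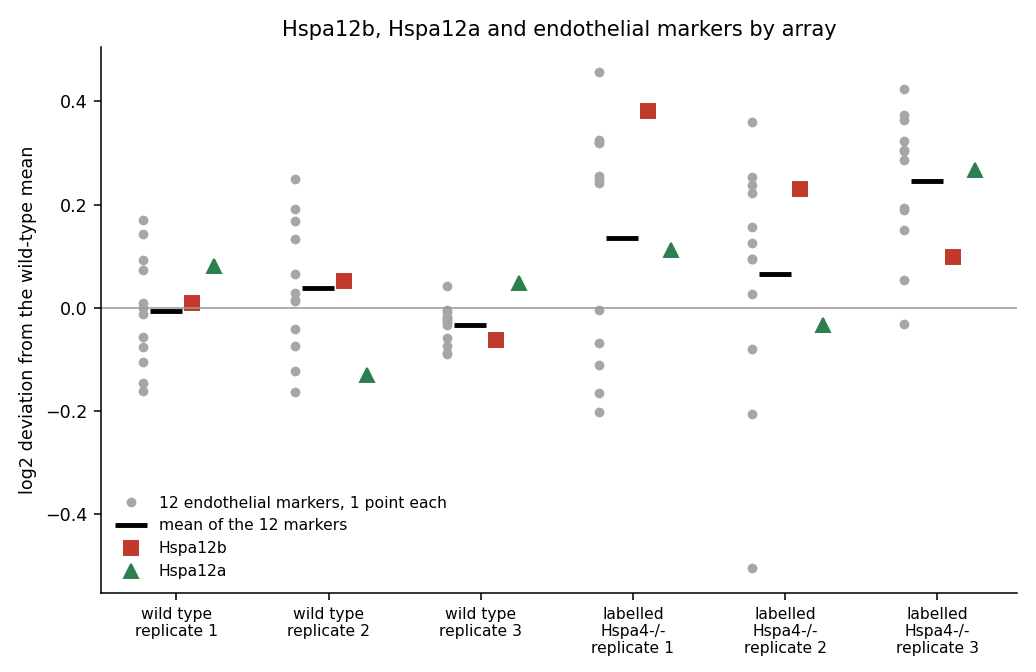
Deviation of each endothelial marker, of their mean, of Hspa12b and of Hspa12a from the gene's own wild-type mean, on the log2 scale, for each array. Hspa12b was highest on mutant-labelled array 1 at 0.38, whereas the marker mean was highest on mutant-labelled array 3 at 0.24.

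Other cell types that could bear on these genes were read from their markers. The 7 measured macrophage and lymphocyte markers summed to 47.4 to 48.4 on the mutant-labelled arrays and 48.5 to 49.2 in wild type, and 4 were lower without overlap, against 9.07% of all genes. These were the macrophage markers Cd68, Csf1r, Adgre1 and Cd163, while the lymphocyte markers Cd3e at 0.011 and Ms4a1 at 0.0011 overlapped between groups, as did Ptprc at −0.19, all named after their values were seen. None of the 7 passed over all genes (limma), and 3 were lower at an unadjusted p under 0.05, against 5.53%. With 5 arrays 4 were again lower without overlap, against 18.9%, and all 7 had a negative difference, as did 11469 of all 20239 genes. Hspa13 was lower on the same arrays, and the part of these markers in its difference was not tested. With 6 arrays, 1 of 8 fibroblast markers (Ddr2, −0.28) and 1 of 4 erythroid markers (Hbb-b1, −0.34) were also lower without overlap. Of 7 atrial and conduction markers 1 was lower (Hcn4, −0.27) and 1 higher (Nppa, 1.80). Of 8 skeletal muscle markers 1 was higher (Ckm, 0.24). The shares of all genes were 9.07% lower and 6.08% higher. These genes too were named after their values were seen, and their part was not tested. The 8 male germ cell markers, set beside Hspa1l and Hspa2, had a median difference of −0.069 with 0 positive, against −0.043 for Hspa1l and 0.08 for Hspa2. With 5 arrays their median was −0.092 with 2 positive, against 0.015 for Hspa1l and 0.10 for Hspa2. Of all 20239 genes, 9278 were positive with 6 arrays and 8770 with 5. With 6 arrays 1 of the 8, Pgk2, was lower without overlap, against 9.07%. The group means of the 8 markers then ran from 5.26 to 6.25, below all array medians (6.42 to 6.48). Their signal over background is unknown, so nothing follows from them about germ cell transcripts.

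The Hspa8 and Hspa1a probe set values moved together from array to array, whatever the label. Over the 6 arrays Pearson's r was 0.947 (exact permutation p = 0.00972, or 0.350 after Benjamini-Hochberg adjustment over the 36 pairs of the 9 genes). Spearman's rho was 0.943 (exact permutation p = 0.0167, adjusted 0.6). Without the 2 arrays farthest from the Hspa8 median, mutant-labelled array 3 and wild-type array 2, r was 0.787. Hspa9 ran against Hspa8, with r −0.695 (exact permutation p = 0.135, adjusted 0.606), rho −0.886 (exact permutation p = 0.0333, adjusted 0.6) and r −0.941 over the 4 arrays left by the same step. None of the 36 pairs passed after adjustment, and 4 had an unadjusted exact permutation p under 0.05 for r. Hspa9 with Hspa8 was not among these 4. They were Hspa8 with Hspa1a and, at negative r, Hspa8 with Hspa12a (−0.852), Hspa12b with Hspa14 (−0.836) and Hspa12b with Hspa13 (−0.814). Without the 2 arrays farthest from the first gene's median, r of those negative pairs was 0.251, 0.723 and −0.548. The coefficients ran from −0.852 to 0.947.

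**Figure D4:**
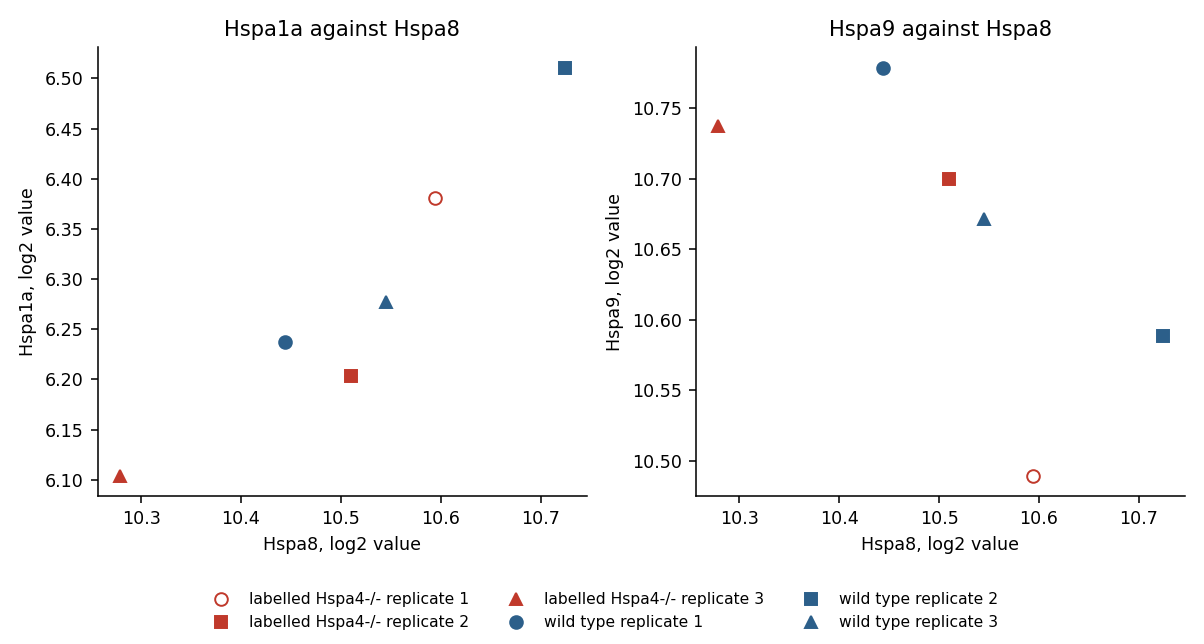
Log2 value of Hspa1a (left) and Hspa9 (right) against that of Hspa8 on the 6 arrays, 1 point an array. Hspa1a followed Hspa8 (r = 0.947) and Hspa9 ran against it (r = −0.695), with arrays of both labels along each trend. Neither pair passed after adjustment over the 36 pairs of the 9 genes (exact permutation, adjusted p = 0.350 and 0.606).

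Within arrays 3 pairs of genes were also compared, as the difference of 1 gene from another set against the wild-type mean of that difference. The inducible Hspa1a and the mitochondrial Hspa9 were each set against the constitutive Hspa8, and Hspa12b against Hspa12a. No atypical gene was set against another class, and Hspa13 was in no pair. Hspa1a minus Hspa8 stood at 0.016, −0.08 and 0.05 on mutant-labelled arrays 1, 2 and 3, and the group difference was −0.0026 (SD 0.07 and 0.03; exact two-sided permutation p = 0.9). Hspa9 minus Hspa8 stood at −0.21, 0.08 and 0.35 on those arrays, with wild-type arrays 1, 2 and 3 at 0.23, −0.24 and 0.018. Its group difference was 0.07 (SD 0.28 and 0.24; exact permutation p = 0.7). Hspa12b minus Hspa12a stood at 0.27, 0.26 and −0.17, and its group difference was 0.12 (SD 0.25 and 0.16; exact permutation p = 0.6). After Benjamini-Hochberg adjustment over the 3 pairs each p was 0.9, and 3 against 3 arrays cannot go below 0.1. With 5 arrays the group differences were −0.012, 0.22 and 0.047 in the same order, each with an adjusted exact permutation p of 0.8. The Hspa1a and Hspa8 probe set values thus kept nearly the same distance on every array, while the other 2 pairs varied as much within a group as between groups. The Hspa1a group means of 6.23 and 6.34 lay below all array medians (6.42 to 6.48), and its signal over background is unknown. Nothing follows from its values about the inducible transcript.

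Among the partners and heat shock genes, 2 fell with 5 arrays, the exchange factor gene Hsph1 and the Hsp90 co-chaperone gene Chordc1. Over 56 measured partner genes, with Hspa4 and the 9 genes left out, 0 passed with 6 arrays (limma), and Hsph1 and Chordc1 passed with 5, both lower, where 0.208% of all genes passed as lower. Of all genes, 89 passed with 5 arrays. Without wild-type array 3 as well, 0 partners passed, and 2 of all genes. The count was 1 partner without wild-type array 1, where 6 of all genes passed. It was 5 without wild-type array 2 (Hsph1, Dnaja1, Stub1, Chordc1 and Fkbp4), where 875 of all genes passed. The nucleotide exchange factor list held the largest differences. Hsph1, the inducible Hsp110, read 7.31, 6.62 and 6.66 on mutant-labelled arrays 1, 2 and 3 and 7.74, 7.53 and 7.64 on wild-type arrays 1, 2 and 3. All mutant-labelled arrays were below all wild-type arrays, with array 1 between. Its difference was −0.77 with 6 arrays (SE 0.16; limma, adjusted p = 0.210) and −0.996 with 5 (SE 0.08; limma, adjusted p = 0.00334). Hspa4l, the third Hsp110 gene, differed by −0.25 (SE 0.08; limma, adjusted p = 0.270) with 6 arrays and by −0.24 (SE 0.08; limma, adjusted p = 0.246) with 5. Of the 13 genes of the list, Hspa4 included, 4 were lower at an unadjusted p under 0.05 with 6 arrays, against 5.53% of all genes. The list's median was −0.0096. These 4 were Hspa4, Hspa4l, Hsph1 and Grpel2. Hspa4 is the deleted gene, so its place among them is no result about the partners. The same 4 were lower without overlap, against 9.07% of all genes, and 0 were higher, against 6.08%. At an unadjusted p under 0.05 with 5 arrays the same 4 were lower, against 6.36%, and 2 higher, against 8.55%, with a median of −0.030.

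J-domain partners of cytosolic Hsp70 had 2 of 14 genes lower at an unadjusted p under 0.05 with 6 arrays and 0 higher, against 5.53% and 5.64% of all genes, with a median of 0.0031. With 5 arrays 3 were lower, against 6.36%, and 0 higher, with a median of −0.030. With 6 arrays 1 was higher without overlap, against 6.08%, and 1 lower, against 9.07%. Dnaja2 differed by −0.19 (SE 0.07), Dnajb4 by −0.24 (SE 0.10) and Dnaja1 by −0.30 (SE 0.13), with adjusted p from 0.357 to 0.457 (limma) on 6 arrays. With 5 arrays Dnaja2 stood at −0.21 (SE 0.08; limma, adjusted p = 0.250) and Dnajb4 at −0.18 (SE 0.10; limma, adjusted p = 0.466), and Dnaja1 differed by −0.46 (SE 0.09; limma, adjusted p = 0.0655). Dnaja1 passed on 5 arrays with array weights, where 321 of all genes passed, or without wild-type array 2, where 875 did. Mutant-labelled array 1 read 7.18 for Dnaja1, inside the wild-type range of 7.01 to 7.21, and the other 2 mutant-labelled arrays read 6.59 and 6.75.

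Partners that bind the carboxy-terminal tail of Hsp70 or regulate it had 1 of 8 genes higher and 1 lower at that level with 6 arrays, against 5.64% and 5.53% of all genes, and a median of −0.082. The counts were the same with 5 arrays, against 8.55% and 6.36%, with a median of −0.068. With 6 arrays 1 gene, Stub1, was higher without overlap, against 6.08%, and 1, Stip1, was lower, against 9.07%. Stub1, the ubiquitin ligase that sends Hsp70 clients to the proteasome, read 8.0, 8.20 and 8.25 on mutant-labelled arrays 1, 2 and 3 and 7.90, 7.80 and 7.75 on wild-type arrays 1, 2 and 3. Every mutant-labelled array was above every wild-type array, at a difference of 0.33 (SE 0.08; limma, adjusted p = 0.229), and of 0.41 (SE 0.07; limma, adjusted p = 0.0620) with 5 arrays. Stip1, which hands clients from Hsp70 to Hsp90, was below wild type on every mutant-labelled array, at 9.16 to 9.21 against 9.36 to 9.58 (difference −0.27, SE 0.07; limma, adjusted p = 0.248), and differed by −0.28 with 5 arrays (SE 0.08; limma, adjusted p = 0.172). Tomm70a, the mitochondrial import receptor that docks Hsp70, differed by −0.15 (SE 0.07; limma, adjusted p = 0.480), and by −0.098 with 5 arrays (SE 0.07; limma, adjusted p = 0.568).

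Mitochondrial import and folding partners of Hspa9 had 1 of 13 genes lower at an unadjusted p under 0.05 with 6 arrays and 0 higher, against 5.53% and 5.64% of all genes, with a median of −0.059. With 5 arrays the counts turned to 0 lower, against 6.36%, and 1 higher, against 8.55%, with a median of −0.050. With 6 arrays 3 were lower without overlap, against 9.07%, and 0 higher, against 6.08%. The mitochondrial exchange factor genes Grpel1 and Grpel2 were counted in the exchange factor list instead, and are named here for that role after their values were seen. Grpel2 differed by −0.22 (SE 0.08; limma, adjusted p = 0.327) on 6 arrays and −0.27 (SE 0.08; limma, adjusted p = 0.151) on 5. Grpel1 differed by 0.11 (SE 0.09; limma, adjusted p = 0.715) on 6 and 0.17 (SE 0.09; limma, adjusted p = 0.422) on 5. Hspd1, the mitochondrial chaperonin that receives clients from Hspa9, differed by −0.23 (SE 0.10; limma, adjusted p = 0.427) on 6 arrays and −0.20 (SE 0.11; limma, adjusted p = 0.445) on 5. Lonp1, a matrix protease, stood at −0.13 (SE 0.07; limma, adjusted p = 0.559), and at −0.14 (SE 0.08; limma, adjusted p = 0.457) on 5. Nfs1, the cysteine desulfurase of iron-sulfur cluster assembly, stood at −0.10 (SE 0.07; limma, adjusted p = 0.667), and at −0.094 (SE 0.08; limma, adjusted p = 0.640) on 5.

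Heat shock factors and their inducible targets had 3 of 14 genes lower at an unadjusted p under 0.05 and 0 higher on 6 arrays, against 5.53% and 5.64% of all genes, with a median of −0.095. On 5 arrays 5 were lower, against 6.36%, and 1 higher, against 8.55%, with a median of −0.16. On 6 arrays 3 were lower without overlap, against 9.07%, and 0 higher, against 6.08%. Of the 14, 5, Hspa1a and Hspa8 among them, are on other lists too. Chordc1, an Hsp90 co-chaperone, read 7.59, 7.39 and 7.46 on mutant-labelled arrays 1, 2 and 3 and 8.35, 8.12 and 8.28 on wild-type arrays 1, 2 and 3. The groups were well apart, and Chordc1 differed by −0.77 with 6 arrays (SE 0.08; limma, adjusted p = 0.0773) and −0.82 with 5 (SE 0.09; limma, adjusted p = 0.0127). Fkbp4, an Hsp90-binding prolyl isomerase, differed by −0.40 with 6 arrays (SE 0.13; limma, adjusted p = 0.289) and −0.48 with 5 (SE 0.13; limma, adjusted p = 0.150).

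**Figure D5:**
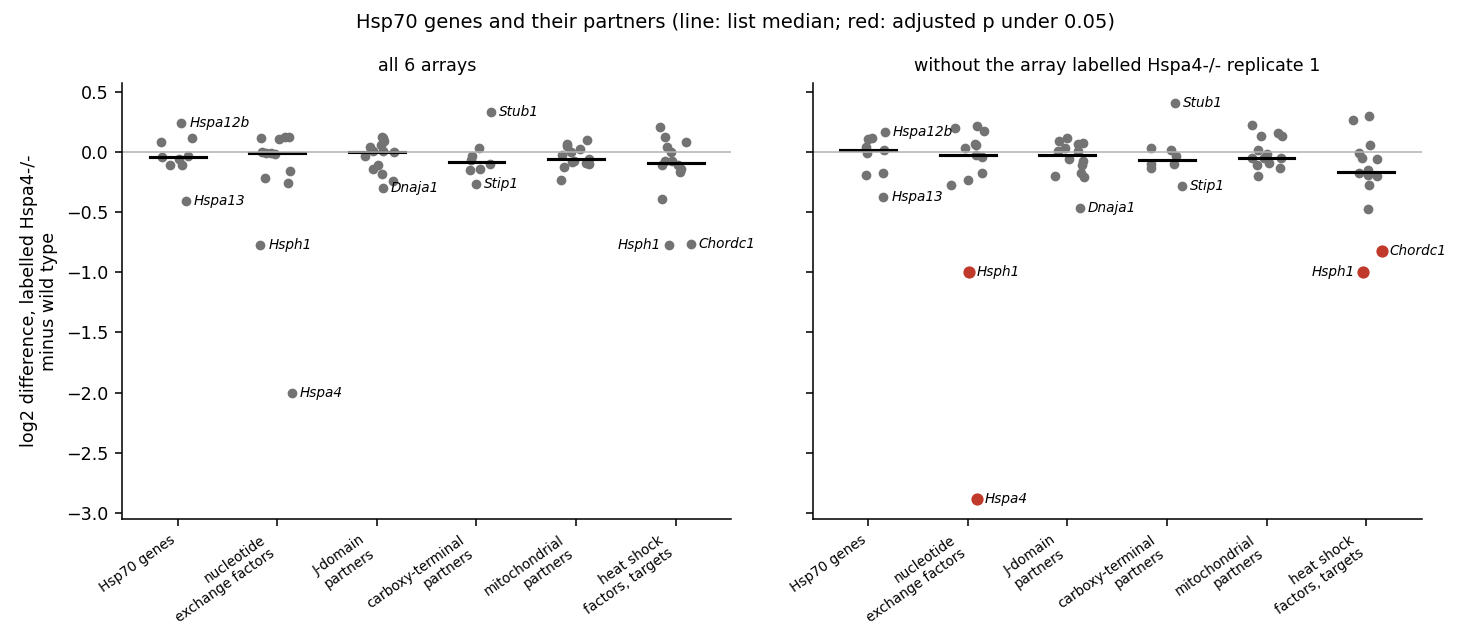
Log2 difference between mutant-labelled and wild-type means for the Hsp70 genes and 5 lists of partners, with all 6 arrays (left) and without mutant-labelled array 1 (right), 1 point a gene and a black line at each list's median. Hspa4, Hsph1 and Chordc1 pass the threshold on the right (red), and the points of the Hsp70 genes lie between −0.41 and 0.24 on the left.

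The genes whose values ran most like those of 5 members over the 6 arrays were found by Pearson's r among all named genes, as a description. For Hspa8 they were Nobox (0.984), Synpo2 (0.983) and Nnmt (0.981), and for Hspa1a Fam220a (0.994), Serping1 (0.985) and Synpo2 (0.980), so that Synpo2, which encodes a Z-disc protein, came up for both. Synpo2 read 8.42, 8.32 and 8.15 on mutant-labelled arrays 1, 2 and 3 and 8.31, 8.59 and 8.38 on wild-type arrays 1, 2 and 3, again lowest on mutant-labelled array 3 and highest on wild-type array 2. For Hspa9 they were Oaf (0.997), Atl3 (0.994) and Aqp4 (0.993), all lowest on mutant-labelled array 1. For Hspa13 they were the innate immune receptor gene Tlr3 (0.995), the mitochondrial carboxylase gene Pcca (0.992) and the collagen receptor gene Ddr2 (0.991), each lower on all mutant-labelled than on all wild-type arrays. For Hspa12b they were Acaa1a (0.996), Serhl (0.991) and Mhrt (0.986), the last a noncoding RNA from the cardiac myosin locus that read 11.15, 10.89 and 10.71 against 10.48, 10.47 and 10.29. With 6 arrays such values are common: 28 to 112 genes exceeded an r of 0.95 with each of these 5 members. These genes were picked for following a member over the same arrays. Their array orders and group separation follow from that choice and add no support.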

How the data were processed

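The deposited table holds log2 probe set values for 6 arrays of ventricle RNA, made by the authors; the submitters' processing notes name R 2.13.0 and affy. The sources used here do not state the background correction, normalisation or summary method, and the values were kept as deposited. Of 21225 probe sets, 20239 carried 1 gene symbol, 0 several and 986 none, by GEO's platform annotation. Groups came from the labels. A 2-group model (limma 3.58.1, lmFit and eBayes, R 4.3.3) was fitted over all 20239 genes with Benjamini-Hochberg adjustment over all of them and a threshold of 0.05, without a filter, with all 6 arrays and with the 5 left without mutant-labelled array 1. The method was tested on simulated data.

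Single values were tested with exact two-sided permutation tests. Members, 5 partner lists, 8 marker lists, alternatives and the naming rule were chosen with earlier results of these data known. The rule named the 9 members, Hspa4, Hspa4l, Hsph1, the genes of each partner list past the threshold with 6 or 5 arrays, the 3 of each list with the smallest p, and for 5 members the 3 genes of highest correlation, predicted genes and clone names left out. List genes without a named probe set were left out. Pairs of arrays shared 11 to 30 identical values, so no array was a copy. The alternatives were leaving out the lowest 25% or 50% of genes, quantile normalisation, subtracted medians, array weights, a replicate block and leaving out each array.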

Additional observations from a re-analysis of the deposited data

How the results depend on the processing

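Hspa8, Hspa1a, Hspa2, Hspa12a, Hspa12b, Hspa13 and Hspa14 kept their sign in every alternative on 6 arrays in which they were tested, and Hspa8, Hspa1a, Hspa2, Hspa12b and Hspa13 on 5. Leaving out the lowest 50% of genes removed Hspa1a and Hspa2. Signal over background is unknown. The cause of the shifts below was not tested. Where a single mutant-labelled array remained, it was assumed to vary like the others.

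With array weights on 6 arrays, Hspa4 passed at −2.54 (limma, adjusted p = 0.0488), 1 member passed (Hspa13), 2 partners passed, and Hspa1l turned to 0.017. With array weights on 5 arrays 1 member and 4 partners passed and Hspa1l turned to −0.012. Of all genes, 115 passed with these weights on 6 arrays and 321 on 5. On 6 arrays 1 partner, Chordc1, passed with either filter on low values and with the replicate block, where 2 of all tested genes passed each time. Quantile normalisation turned Hspa1l to −0.0091 on 5 arrays and Hspa1a minus Hspa8 to 0.018. The replicate numbers did not pair the arrays: same-numbered deviations correlated at −0.172, 0.0916 and −0.249. With the replicate block the members' median on 5 arrays moved to 0.082, and no member passed.

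Leaving out each array in turn gave, on 6 arrays, Hspa4 from −2.89 to −1.54, members passing 0 throughout, 2 to 3 members without overlap, members' medians from −0.067 to 0.015, 0 to 2 partners passing, Hspa1l from −0.15 to 0.024 and Hspa9 from −0.085 to 0.039. On 5 arrays it gave Hspa4 from −2.95 to −2.80 and members' medians from −0.032 to 0.082. Hspa1l ran from −0.15 to 0.18, Hspa9 from −0.0067 to 0.088, Hspa12a from −0.032 to 0.27 and Hspa14 from −0.068 to 0.047. Counts on 5 arrays are given only for leaving out a wild-type array. They were 0 to 1 members passing (Hspa13, without wild-type array 2) and 0 to 5 partners passing. Members without overlap numbered 3 to 6 (6 without wild-type array 1). The share of all genes without overlap was counted only with 6 arrays (15.1%) and without mutant-labelled array 1 (33.3%). The other counts without overlap therefore have no background beside them and are not read as a result. The 5 partners passed without wild-type array 2, where 875 of all genes passed. Without wild-type array 3, 0 partners and 2 of all genes passed. Hspa1a minus Hspa8 ran from −0.031 to 0.035, Hspa9 minus Hspa8 from −0.066 to 0.22 and Hspa12b minus Hspa12a from 0.047 to 0.27.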
